A study of Mus musculus with 12 samples.

Results

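Ly6a, Msln, Anxa1, Anxa3 and Clu are 5 genes used as markers of a fetal-like, regenerative state of the intestinal epithelium. They were taken by name, as 5 of the 48448 genes whose FPKM (fragments mapped to a transcript, scaled to its length and to the size of the library) could be summed from the transcripts of 12 mouse colon RNA-seq libraries. The choice was made with earlier results of these data known, so tests of these genes describe them and give no independent support. All 5 passed the filter for testing, which asked for an FPKM of 1 or more in 3 or more libraries, although Msln passed through its tumour libraries alone.

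The mice were of strain C57BL/6 and underwent a model of colitis-associated cancer, and their libraries form 4 groups of 3. Colon tumours and the colon next to them were taken from Synbindinflox mice (flox, the controls, which carry the floxed gene) and from SynbindinΔIEC mice (ΔIEC, with the gene deleted in intestinal epithelial cells). Synbindin, the protein of the Trappc4 gene, belongs to the TRAPP complexes, which help to dock transport vesicles at Golgi membranes. The driver of the deletion, the agents of the cancer model, the age of the mice and whether the replicates are separate animals were not given in the sources used here. Hence p-values cover the spread among these libraries, which may be technical. Each library is named by its group and replicate number (flox tumour 2). The adjacent samples are labelled as epithelium, while the protocol speaks of dissected tissue. Read counts were not used here, so the depth of each library is unknown.

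Background to the 5 genes comes from work on injured gut. After damage, crypt cells lose the expression of adult stem cell genes for a time and take up a program that resembles fetal gut epithelium. The transcriptional coactivators YAP and TAZ, which act through TEAD factors on DNA, are known to drive this program. Ly6a (a glycolipid-anchored surface protein, used to sort such cells) and Msln (mesothelin, another glycolipid-anchored surface protein, best known from the mesothelium) mark the cell surface. Anxa1 and Anxa3 are annexins, proteins that bind membrane phospholipids in the presence of calcium, and Anxa1 is also known as a glucocorticoid-induced mediator that limits inflammation. Clu (clusterin) is a secreted chaperone that marks rare cells of the damaged crypt.

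Of the 5 genes, Anxa1 was the one with a promoter window in the RefSeq-derived table used here (build GRCm38.p6, minus strand), and 30 bases of it are shown because a TEAD motif lay there. Both strands of the window of 300 bases, from 250 bases before the start to 50 after it, were searched for GGAATG (TEAD) and for TGANTCA (AP-1, which often acts with TEAD); a match of one may share its letters TG with a match of the other. GGAATG was found once on the other strand at chr19:20390902-20390907, from 236 to 231 bases before the RefSeq start, and TGANTCA was not found. The bounds of the GENCODE gene reach farther upstream than the RefSeq start, so by them the motif lies within the gene. The stretch chr19:20390890-20390919 follows, with the motif, which reads as its reverse complement, in capitals.
Anxa1: actgcactgaacCATTCCtgtgaggaataa
Of 32851 such windows, 4817 (14.7%) held GGAATG and 2565 (7.81%) held TGANTCA, so a match of this kind is common. The match describes letters in a window and says nothing of binding.

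As a check of the labels, Trappc4 (ENSMUSG00000032112) was measured first. Its mean FPKM was 17.04 ± 0.285 (SD, n = 3) in flox adjacent, 11.1 ± 1.30 in ΔIEC adjacent, 19.0 ± 1.73 in flox tumours and 11.3 ± 1.39 in ΔIEC tumours. No ΔIEC library reached a flox library of the same tissue, and the ratio of means was 0.649 in adjacent tissue and 0.596 in tumours. Yet limma did not call Trappc4 once p was adjusted over all genes (log2 difference -0.59, adjusted p = 0.931 in adjacent tissue; -0.70, adjusted p = 1 in tumours), so the genotype contrasts missed the change in the deleted gene itself.

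Anxa1 and Msln were higher in every tumour library than in every adjacent library, in both genotypes. Clu rose in the mean of both genotypes, with a spread that left the call to single libraries. Ly6a and Anxa3, already above 98.8% and 93.9% of tested genes in flox adjacent colon, did not pass the test. None of the 5 genes passed the test between ΔIEC and flox in either tissue.

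**Figure D1:**
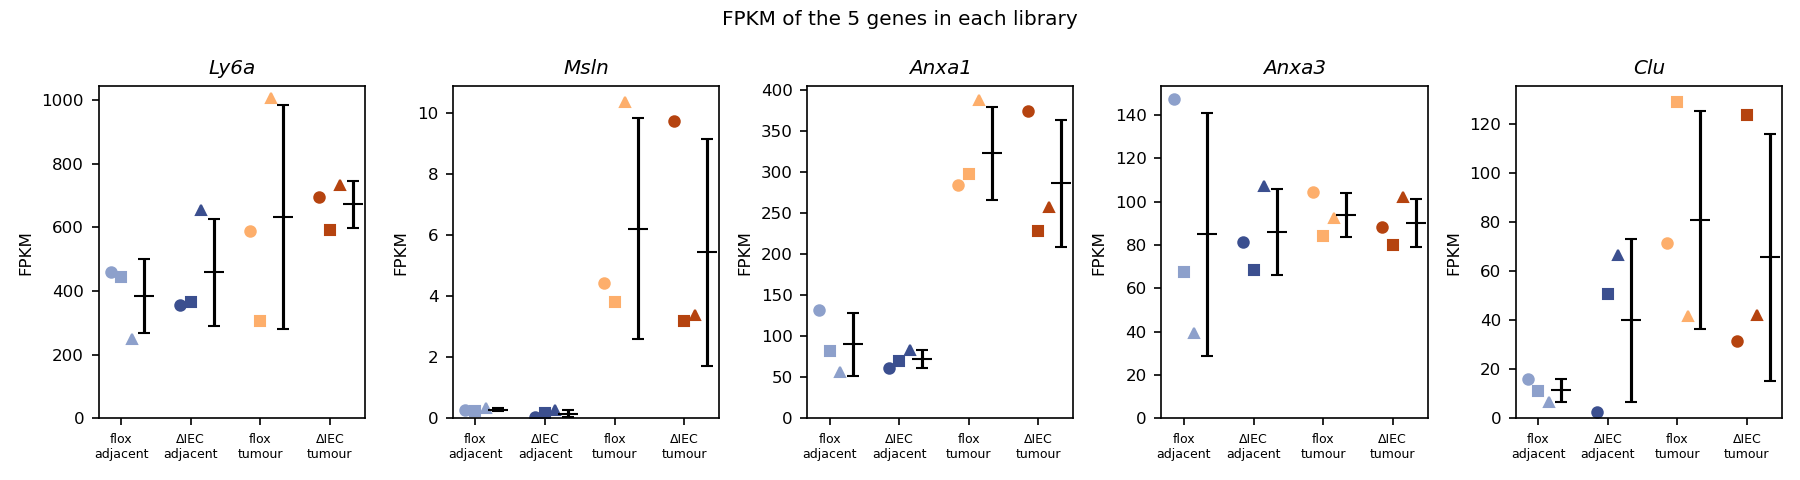
FPKM (y axis, linear, a separate scale for each gene) of Ly6a, Msln, Anxa1, Anxa3 and Clu in the 12 libraries, by group on the x axis. Circles, squares and triangles are replicates 1, 2 and 3, and bars show group means with their SD. Tumour and adjacent libraries do not overlap for Msln and Anxa1, and they overlap for the other 3 genes.

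Anxa1 (ENSMUSG00000024659, GRCm38 chr19:20373428-20390944, minus strand) stood at an FPKM of 131.3, 81.6 and 56.8 in flox adjacent 1 to 3 and 61.9, 70.3 and 83.6 in ΔIEC adjacent 1 to 3. In tumours it stood at 283.9, 297.1 and 388.0 in flox and at 373.9, 227.6 and 256.8 in ΔIEC. The lowest tumour, ΔIEC tumour 2, was above the highest adjacent library, flox adjacent 1. Group means rose in the order ΔIEC adjacent (71.9 ± 10.98), flox adjacent (89.9 ± 38.0), ΔIEC tumours (286.1 ± 77.5) and flox tumours (323.0 ± 56.6; SD, n = 3 each), and the single step without overlap lay between the tissues.

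Differences are on the log2(FPKM + 1) scale, where changes at low levels come out too small. The tumour minus adjacent difference of Anxa1 was 1.90 in flox (95% confidence interval 1.26 to 2.54; limma adjusted p = 0.00107). It was 1.95 in ΔIEC (1.32 to 2.59; limma adjusted p = 0.00177) and 1.93 ± 0.203 (SE) as the mean of both genotypes (limma adjusted p = 6.63e-05). The ratio of mean FPKM was 3.76. The exact two-sided permutation p was 0.1 in each genotype, the smallest that 3 libraries against 3 allow, and 0.005 for the mean of both, the smallest that permutation within genotypes allows. The annexin transcript Anxa1-201, protein coding with 13 exons, held 91.0% to 97.3% of the FPKM of the gene in every library, so it made up the bulk of the rise. Its mean share was 95.1% in adjacent libraries and 94.4% in tumours.

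Msln (ENSMUSG00000063011, GRCm38 chr17:25748613-25754378, minus strand) was near its floor in adjacent tissue, with an FPKM of 0.267, 0.238 and 0.351 in flox 1 to 3 and 0.0315, 0.179 and 0.259 in ΔIEC 1 to 3. Tumours had 4.43, 3.80 and 10.4 in flox and 9.72, 3.19 and 3.39 in ΔIEC. Flox tumour 3 and ΔIEC tumour 1 stood well above the other 4 tumours, and no adjacent library came near any tumour. Means ordered as ΔIEC adjacent (0.157 ± 0.116), flox adjacent (0.285 ± 0.0584), ΔIEC tumours (5.43 ± 3.72) and flox tumours (6.19 ± 3.62), with overlap within each tissue.

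The log2 difference of Msln was 2.38 in flox (95% interval 1.52 to 3.23; limma adjusted p = 0.00145), 2.34 in ΔIEC (1.48 to 3.19; limma adjusted p = 0.00256) and 2.36 ± 0.271 as the mean of both (limma adjusted p = 9.8e-05; exact permutation p = 0.005). Since Msln passed the filter through its tumours alone, a difference was built into its selection for testing, and these values describe it rather than support a call. The ratio of mean FPKM was 26.3, but its denominator rests on values far below 1, where FPKM is least precise. Even in tumours Msln was a middling transcript: 45.2% of tested genes had a lower mean in flox tumours, against 98.9% for Anxa1. Because mesothelin is a mesothelial protein, mesothelial markers were read beside it. The summed FPKM of 8 such genes (among them Upk3b, Lrrn4 and Wt1) was 0.851 to 2.88 in adjacent libraries and 1.18 to 2.12 in tumours, 1 of the 8 was abundant enough to be tested (Upk1b, named after its values were seen, called lower in tumours at -0.75 in the mean contrast), and Wt1 was at 0 in all 6 tumours.

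Clu (ENSMUSG00000022037, GRCm38 chr14:65968483-65981547, plus strand) varied widely within groups. Flox adjacent 1 to 3 had an FPKM of 16.2, 11.2 and 6.83, whereas ΔIEC adjacent 1 to 3 had 2.505, 50.7 and 66.5. Tumours had 71.4, 129.1 and 41.7 in flox and 31.3, 123.5 and 42.0 in ΔIEC. All flox tumours were above all flox adjacent libraries. In ΔIEC, 2 of the 3 adjacent libraries lay within the range of the tumours. Means ordered as flox adjacent (11.4 ± 4.68), ΔIEC adjacent (39.9 ± 33.3), ΔIEC tumours (65.6 ± 50.4) and flox tumours (80.7 ± 44.4), and each neighbouring pair overlapped.

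The log2 difference of Clu as the mean of both genotypes was 1.96 ± 0.713 (95% interval 0.37 to 3.55; limma adjusted p = 0.0420; exact permutation p = 0.035). The call was lost without any 1 of flox adjacent 1, 2 or 3, flox tumour 1 or 2, or ΔIEC tumour 2 or 3, with limma adjusted p from 0.0515 to 0.0939. Within flox the difference was 2.65 (0.40 to 4.89; limma adjusted p = 0.0640; exact permutation p = 0.1), and within ΔIEC it was 1.27 (-0.97 to 3.52; limma adjusted p = 0.369). Without ΔIEC adjacent 1 the ΔIEC difference was -0.08, and the flox difference, unchanged in size but tested with less pooled spread, had a limma adjusted p of 0.00623. Clu-201 held 85.4% to 99.99% of the gene's FPKM.

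Fibroblast, macrophage and endothelial markers were higher in the same 2 ΔIEC adjacent libraries that were high in Clu. The summed FPKM of 8 fibroblast genes was 60.8, 294.2 and 240.7 in ΔIEC adjacent 1 to 3, that of 8 endothelial genes was 13.9, 47.3 and 37.7, and that of 8 macrophage genes was 28.5, 148.2 and 155.6. In flox adjacent 1 to 3 the fibroblast sum was 218.2, 72.3 and 99.9, where Clu was 16.2, 11.2 and 6.83. In flox tumours 1 to 3 it was 596.0, 742.1 and 413.5, with Clu at 71.4, 129.1 and 41.7. In ΔIEC tumours 1 to 3 it was 347.8, 548.2 and 740.4, with Clu at 31.3, 123.5 and 42.0. The part of these cell types in the Clu values was not tested.

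Ly6a (ENSMUSG00000075602, GRCm38 chr15:74994877-74998031, minus strand) had the highest level of the 5 genes in every library. Its FPKM was 460.3, 443.8 and 249.99 in flox adjacent 1 to 3 and 356.0, 366.2 and 653.4 in ΔIEC adjacent 1 to 3. Tumours had 587.2, 306.4 and 1006.4 in flox and 694.0, 590.3 and 733.9 in ΔIEC. Flox tumour 2 lay below 5 of the 6 adjacent libraries and ΔIEC adjacent 3 above 3 of the 6 tumours, so the tissues overlapped. Means were 384.7 ± 117 in flox adjacent, 458.5 ± 169 in ΔIEC adjacent, 633.3 ± 352 in flox tumours and 672.7 ± 74.1 in ΔIEC tumours, and no neighbours in this order were separated.

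The log2 difference of Ly6a was 0.61 in flox (95% interval -0.30 to 1.52) and 0.61 in ΔIEC (-0.30 to 1.51), with limma adjusted p of 0.269 and 0.289. Leaving out 1 library moved the flox difference from 0.19 (without flox tumour 3) to 1.05 (without flox tumour 2), and it was 0.32 without flox adjacent 3. As the mean of both it was 0.61 ± 0.289 (-0.04 to 1.25; limma adjusted p = 0.105; exact permutation p = 0.07). This result depended on scaling and on 1 library. It was 0.99 (limma adjusted p = 0.0133) when libraries were rescaled to the same protein-coding total, 1.00 (limma adjusted p = 0.0223) after quantile normalization and 0.83 (limma adjusted p = 0.0186) without flox tumour 2. Ly6a belongs to a cluster of closely related genes, and how the authors' counting shared reads among them was not given in the sources used here, so its level is uncertain. Ly6a-201 held 42.7% to 57.2% of the gene's FPKM and Ly6a-204 32.7% to 42.8%. The minor transcript Ly6a-202 held 0.933% to 2.87% in adjacent libraries and 3.30% to 6.45% in tumours, with no overlap and no test.

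Anxa3 (ENSMUSG00000029484, GRCm38 chr5:96793339-96845966, plus strand) stood at an FPKM of 147.4, 67.7 and 39.3 in flox adjacent 1 to 3 and at 81.5, 68.3 and 107.3 in ΔIEC adjacent 1 to 3. Tumours had 104.3, 84.2 and 92.5 in flox and 88.2, 80.0 and 102.2 in ΔIEC. All 6 tumours fell inside the range of the adjacent libraries. The SD was 56.0 in flox adjacent and 10.1 in flox tumours, with means of 84.8 and 93.7, and ΔIEC means of 85.7 ± 19.8 and 90.1 ± 11.2 lay between them.

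The log2 difference of Anxa3 was 0.22 ± 0.266 as the mean of both genotypes (95% interval -0.38 to 0.81; limma adjusted p = 0.526; exact permutation p = 0.51). It was 0.34 in flox (-0.49 to 1.18) and 0.09 in ΔIEC (-0.75 to 0.92). Single libraries changed these values. Without flox adjacent 1 the mean difference was 0.46 (limma adjusted p = 0.0416) and without flox adjacent 3 it was -0.0049, while the ΔIEC difference was -0.061 without ΔIEC adjacent 2 and -0.0047 without ΔIEC tumour 3. Anxa3-201 held 64.3% ± 6.78 of the gene's FPKM in adjacent tissue and 57.4% ± 5.86 in tumours (SD, n = 6), and Anxa3-205 15.7% ± 3.59 and 22.7% ± 4.25. Transcripts annotated as retained introns made up 15.9% to 24.7% of Anxa3 in adjacent libraries and 14.6% to 22.7% in tumours, against 2.08% to 9.03% of Anxa1 over all libraries.

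The calls for the 5 genes have to be read against the whole table, in which many genes differed between the tissues. Limma called 2 of the 5 in flox (Anxa1 and Msln, both higher), where it called 36.3% of all 16970 genes tested and 16.6% as higher. It called the same pair in ΔIEC, against 29.4% of all genes and 13.9% as higher. For the mean of both genotypes it called 3 of the 5, with Clu, against 50.6% of all genes and 24.2% as higher. Msln, which could be tested only because its tumours were high, adds nothing to these counts; without it they are 1, 1 and 2 of 4. With so few genes such counts lie near the background, and the number of calls is no result about the 5 genes. Tumours lay wholly above adjacent libraries for Msln, Anxa1 and Clu in flox (26.4% of all genes did so), for Msln and Anxa1 in ΔIEC (20.8%), and for these 2 over all 6 against 6 (13.5%). Here too Msln adds nothing, since it passed the filter through its tumours alone. By size of rise in the mean contrast, 205 genes exceeded Msln, 339 Clu, 349 Anxa1, 2440 Ly6a and 5546 Anxa3.

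Scaling bears on these counts. Protein-coding genes held 440002 to 546160 of the summed FPKM in adjacent libraries and 355684 to 394917 in tumours. In the mean contrast 4100 genes were higher and 4488 lower in tumours, and 7589 and 2293 when protein-coding totals were equalised, a step that moved the median of all genes by 0.30 log2 units. For flox the split was 2817 higher and 3346 lower, or 6540 and 1705 with that rescaling, and for ΔIEC 2357 and 2624, or 4415 and 1449.

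**Figure D2:**
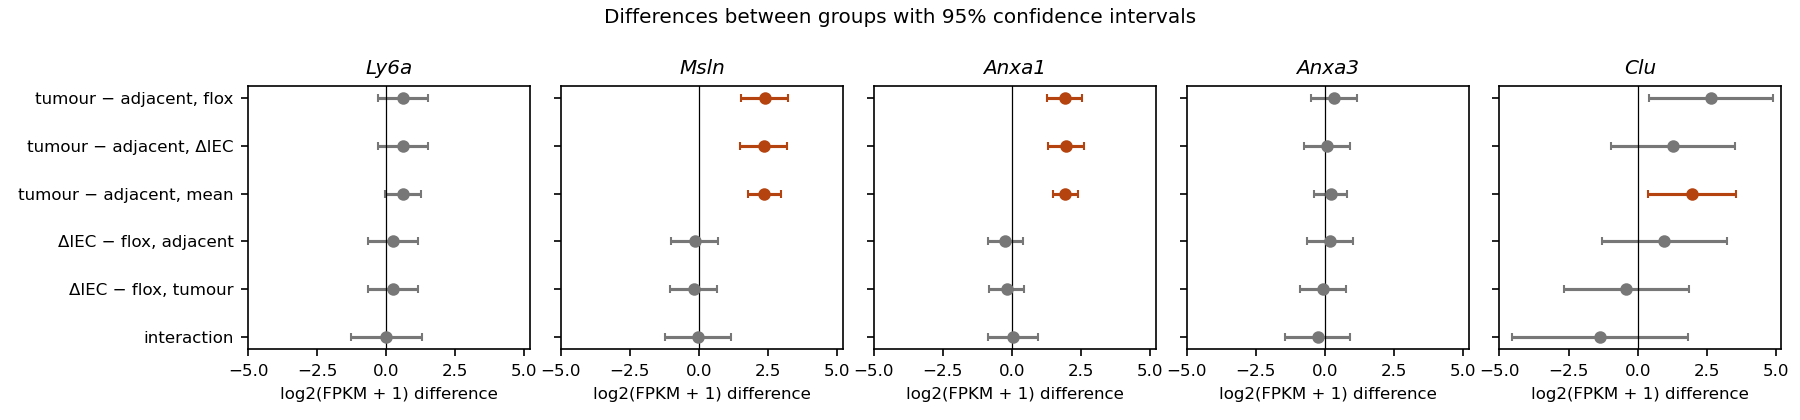
Differences in log2(FPKM + 1) with 95% confidence intervals (x axis) for each of 6 contrasts (y axis) and each gene; orange marks a limma adjusted p below 0.05. Anxa1 was called in all 3 tumour contrasts and Clu in the mean of both genotypes. Msln was also called in all 3, but it could be tested only because its tumours were high. Every interval of the genotype contrasts and the interaction spans 0.

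Synbindin deletion was compared with the floxed control within each tissue. In adjacent tissue the ΔIEC minus flox log2 difference was 0.25 (95% interval -0.66 to 1.15) for Ly6a, -0.16 (-1.01 to 0.70) for Msln, -0.25 (-0.88 to 0.39) for Anxa1 and 0.20 (-0.64 to 1.03) for Anxa3. Clu had the widest interval, with a difference of 0.97 (-1.28 to 3.21), which was 2.33 without ΔIEC adjacent 1 and 0.19 without ΔIEC adjacent 3. Limma adjusted p was 0.932 to 0.966 for the 5 genes. The intervals leave room for a change of at least 0.39 log2 units in either direction for each gene, so similarity was not shown.

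In tumours the ΔIEC minus flox difference was 0.24 (-0.67 to 1.15) for Ly6a, -0.20 (-1.05 to 0.66) for Msln, -0.19 (-0.83 to 0.44) for Anxa1, -0.06 (-0.89 to 0.78) for Anxa3 and -0.41 (-2.65 to 1.84) for Clu. Each interval spanned 0, and limma adjusted p was 1 for each of the 5. The interaction, which asks whether the tumour difference depends on genotype, was -0.00 (-1.29 to 1.28) for Ly6a, -0.04 (-1.24 to 1.16) for Msln, 0.05 (-0.85 to 0.95) for Anxa1, -0.25 (-1.44 to 0.93) for Anxa3 and -1.37 (-4.55 to 1.81) for Clu. The Clu value was -2.73 without ΔIEC adjacent 1, -0.79 without ΔIEC adjacent 2 and -0.60 without ΔIEC adjacent 3. Limma called 0 of the 5 genes in these 3 contrasts and 0 of all 16970 (0%). Its unadjusted p was below 0.05 for 702, 317 and 448 genes. Each count is less than a share of 0.05 of the genes tested, the share expected if no gene differed.

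The description field gives each library a code, and 5 codes occur once in each tissue (flox 1 to 3, ΔIEC 2 and 3); the labels do not say that a code is an animal. Within these 5 pairs the tumour had the higher FPKM in 5 for Anxa1 (2.16-fold to 6.83-fold) and in 5 for Msln (13.1-fold to 29.5-fold). It was higher in 4 for Clu and lower in the other (ΔIEC 3, 0.632-fold), higher in 4 for Ly6a and lower in flox 2 (0.690-fold), and higher in 3 for Anxa3 (0.707-fold to 2.35-fold over the 5).

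Among the 6 tumours the 5 genes did not rank the libraries alike. Msln and Anxa1 were both highest in flox tumour 3 and ΔIEC tumour 1 and lowest in ΔIEC tumours 2 and 3 (Pearson's r = 0.95, exact permutation p = 0.00417, adjusted 0.0833; Spearman's rho = 0.94, exact permutation p = 0.0167, adjusted 0.167; n = 6). Without the 2 tumours farthest from the median r was 0.79. Ly6a and Clu ran the other way, with Clu highest in flox tumour 2, the tumour with the least Ly6a (r = -0.75, exact permutation p = 0.0486, adjusted 0.324; rho = -0.77, exact permutation p = 0.103, adjusted 0.411; r = -0.84 without 2 tumours). Among the 6 adjacent libraries Anxa1 and Anxa3 gave r = 0.85 (exact permutation p = 0.0361, adjusted 0.324; rho = 0.77, exact permutation p = 0.103, adjusted 0.411), which fell to 0.27 without 2 libraries and so rested on them. Ly6a and Anxa1 ranked the adjacent libraries almost alike (rho = 0.94, exact permutation p = 0.0167, adjusted 0.167; r = 0.62, exact permutation p = 0.174, adjusted 0.524; r = 0.86 without 2 libraries). None of the 20 pairs computed within a tissue passed the Benjamini-Hochberg adjustment.

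Most other genes listed for the fetal and regenerative program were higher in tumours. The list was chosen with earlier results of these data known, so its counts describe it and give no independent support. Of 21 listed genes 20 were tested. Limma called 17 higher and 0 lower in the mean contrast (15 and 0 in flox, 16 and 0 in ΔIEC). Over all genes tested it called 50.6% in the mean contrast, and 24.2% as higher (16.6% in flox, 13.9% in ΔIEC). The median log2 difference of the list was 1.69, against -0.02 for all genes tested. Spp1, the secreted matrix protein osteopontin, rose from 0.342 ± 0.253 to 21.5 ± 12.4 (3.90). Il33, an alarmin cytokine, rose from 0.904 ± 0.379 to 14.8 ± 6.97 (2.96), and Anxa8, another annexin, from 29.2 ± 19.4 to 155.1 ± 24.0 (2.64). Basp1, a membrane-associated protein, rose from 1.51 ± 1.01 to 14.0 ± 4.25 (2.63). Spp1 was below an FPKM of 1 in every adjacent library and passed the filter through its tumours alone. Il33 also needed its tumours to pass. A difference was thus built into the testing of both, and they add nothing to the counts or the median of the list.

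The 3 tested genes of that list that were not called, named after their values were seen, were Emp1, Sprr1a and Areg. Emp1, a membrane protein, had the opposite sign, with a mean of 402.97 ± 279.4 in adjacent tissue and 121.6 ± 19.4 in tumours (log2 difference -1.31, limma adjusted p = 0.0727). Sprr1a, a cornified envelope protein, differed by 1.00 (limma adjusted p = 0.0769), and Areg, an EGF receptor ligand, by 0.26 (limma adjusted p = 0.353). Anxa10 was too low to be tested.

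The coactivators, their TEAD partners and genes used as readouts of YAP and TAZ moved in both directions. Of 17 listed genes 16 were tested, and 10 were called higher and 3 lower in the mean contrast (median 0.89). Over all genes tested 50.6% were called in that contrast, and 24.2% as higher. This list, too, was chosen with earlier results of these data known. Tead2, a DNA-binding partner, rose from 3.73 ± 1.39 to 25.9 ± 6.11 (2.52), Ajuba, an adaptor that restrains the kinases upstream of YAP, by 2.14, and Wwtr1, which encodes TAZ, from 1.88 ± 0.974 to 10.6 ± 1.43 (2.07). Ccn2, a matricellular target, rose by 1.75. The 3 called lower, named after their values were seen, were Nuak2 (-1.25), Crim1 (-0.85) and Tead3 (-0.31); with equal protein-coding totals 2 of the list were called lower and 12 higher.

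Crypt base stem cell genes, which injured crypts are known to lose as the fetal-like genes appear, were mostly higher too. Of 16 listed genes 15 were tested, with 11 called higher and 2 lower in the mean contrast (median 1.53). That compares with 50.6% of all genes tested called, and 24.2% as higher. The list was chosen with earlier results of these data known. Lgr5, the receptor that marks these cells, rose from 2.40 ± 0.960 to 22.2 ± 11.5 (2.70), Prox1 from 3.02 ± 3.09 to 78.6 ± 23.8 (4.52), the Wnt target Axin2 from 16.9 ± 3.77 to 102.3 ± 27.8 (2.496), and Tnfrsf19 by 2.47. Lrig1 (-0.87) and Rgmb (-0.87) fell, and were named after their values were seen; with equal protein-coding totals 1 of the list was called lower. In whole tissue these levels do not show whether the same cells carried both sets of genes.

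**Figure D3:**
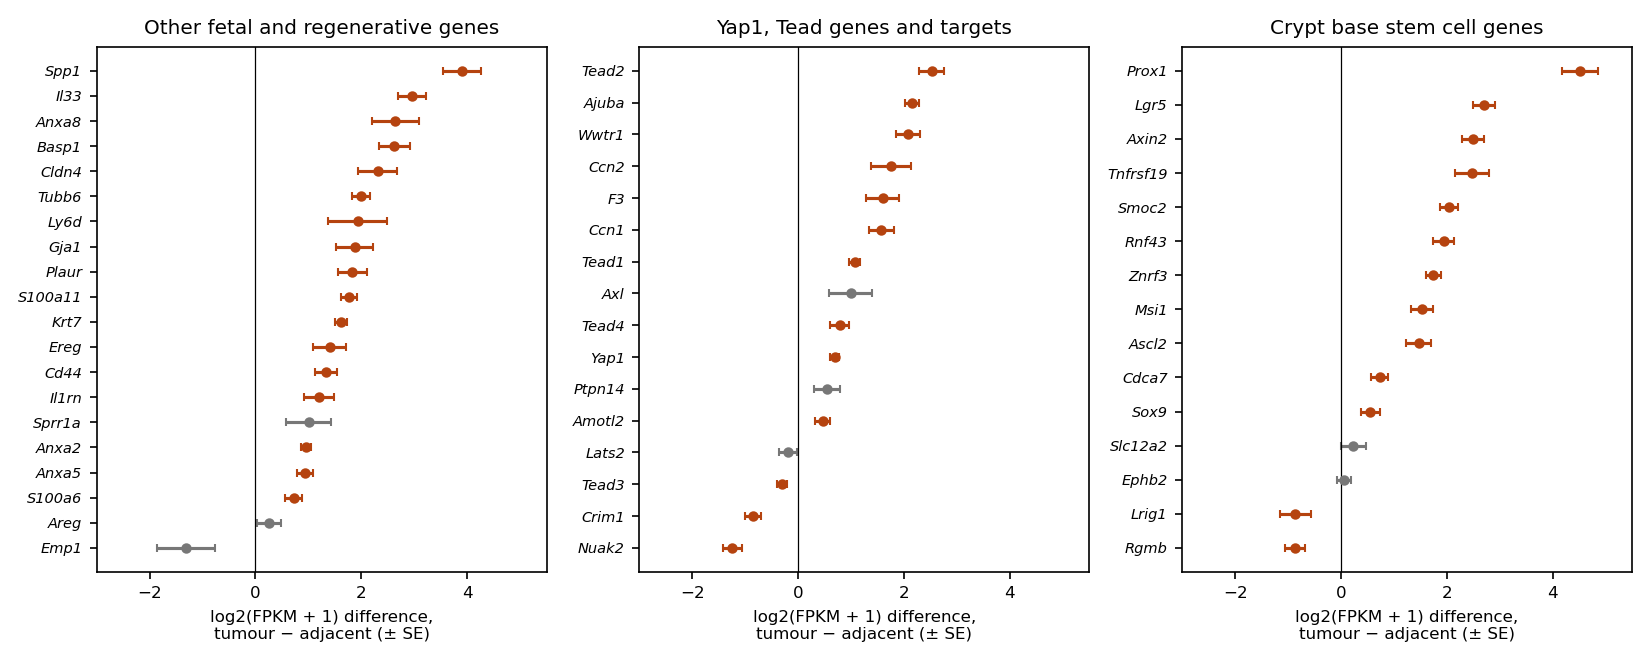
Tumour minus adjacent difference in log2(FPKM + 1), as the mean of both genotypes with its SE (x axis), for the tested genes of 3 lists (y axis, ordered by size); orange marks a limma adjusted p below 0.05. Of the fetal and regenerative genes 17 of 20 were called higher, of the Yap1 and Tead genes 10 of 16, and of the crypt base stem cell genes 11 of 15. Over all genes tested 24.2% were called higher, and the lists were chosen with earlier results of these data known. Spp1 and Il33 passed the filter only with their tumours.

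Within the annexin family the 2 members studied here behaved as 2 of several patterns. Of 12 annexin genes 11 were tested. In the mean contrast 5 were called higher: Anxa8 (2.64), Anxa1 (1.93), Anxa6 (1.495), Anxa2 (0.96) and Anxa5 (0.93). Anxa13 (-2.44), an annexin of the gut epithelium, and Anxa11 (-1.15) were called lower. Anxa3 (0.22), Anxa7 (0.19), Anxa9 (-0.13) and Anxa4 (-0.20) were not called. Limma called 50.6% of all genes tested in the mean contrast, and 24.2% as higher. With equal protein-coding totals 6 were called higher and 2 lower, and when protein-coding transcripts alone were summed 5 were higher and 1 lower. Anxa2 remained the most abundant of the family per length, at 396.9 ± 79.0 in adjacent tissue and 766.2 ± 81.8 in tumours.

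Of 13 Ly6 family genes 8 were tested, and 3 were called higher and 2 lower in the mean contrast, near the background of 50.6% of all genes called. Ly6c1, an endothelial and lymphoid surface protein, rose from 26.9 ± 19.9 to 98.1 ± 50.9 (2.04, limma adjusted p = 0.0121), Ly6d by 1.93 and Ly6e by 0.59. Lypd8, which coats flagellated bacteria in the colon, fell by 1.17 on the log2 scale and Lynx1 by 0.43; after quantile normalization, with equal protein-coding totals or with a filter at an FPKM of 5, 1 of the family was called lower. Ly6a (0.61), Ly6g (0.95) and Ly6c2 (-0.32) were not called.

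For each gene the 3 protein-coding genes with the most similar log2(FPKM + 1) over the 12 libraries were found among 9429 abundant genes, as a description without a test. The points share the 2 tissues, so for genes that differ between tissues a high r reflects the separation of tumours from adjacent libraries. For Msln they were Cxcl2, a chemokine for neutrophils (r = 0.99, mean FPKM 0.303 in adjacent tissue and 29.3 in tumours), Msantd3 (0.99) and Anapc4, a subunit of the anaphase-promoting complex (0.99). For Anxa1 they were Syt8, a synaptotagmin, Ppp2cb, a phosphatase subunit, and Rnf180, a ubiquitin ligase (0.98 each). For Clu they were Kdm2b, a chromatin protein (0.95), Emp3 (0.94) and the receptor Notch2 (0.94).

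The nearest genes of Ly6a and Anxa3 followed single libraries within a tissue. For Ly6a they were Tgtp2, Gbp2 and Gbp4 (0.94 each), all GTPases induced by interferon gamma. Gbp2 was highest in flox tumour 3, at 146.5, where Ly6a was highest, and stood at 10.8 in flox tumour 2, where Ly6a was lowest among tumours. On a list of 16 interferon response genes, 3 were called higher in the mean contrast (Cxcl9 by 2.48, Cxcl10 by 1.78 and Gbp2 by 1.74) and 0 lower, with a median of -0.11, and 0 were called within either genotype. As 24.2% of all genes tested were called higher, 3 of 16 is no excess.

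For Anxa3 the nearest genes were Gpr137b (0.96), Ly6g (0.95) and Hoxb13 (0.92). Hoxb13 is a homeobox gene of the distal colon and rectum. In flox adjacent 1 to 3 it stood at 120.5, 10.2 and 1.56, the order of Anxa3 in the same libraries, and in ΔIEC adjacent 1 to 3 at 30.1, 39.5 and 102.9, where Anxa3 was also highest in library 3 but lowest in library 2. In tumours it was even, from 40.9 to 53.4. The position along the colon from which each adjacent sample was cut was not given in the sources used here, and its part in the Anxa3 values was not tested.

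**Figure D4:**
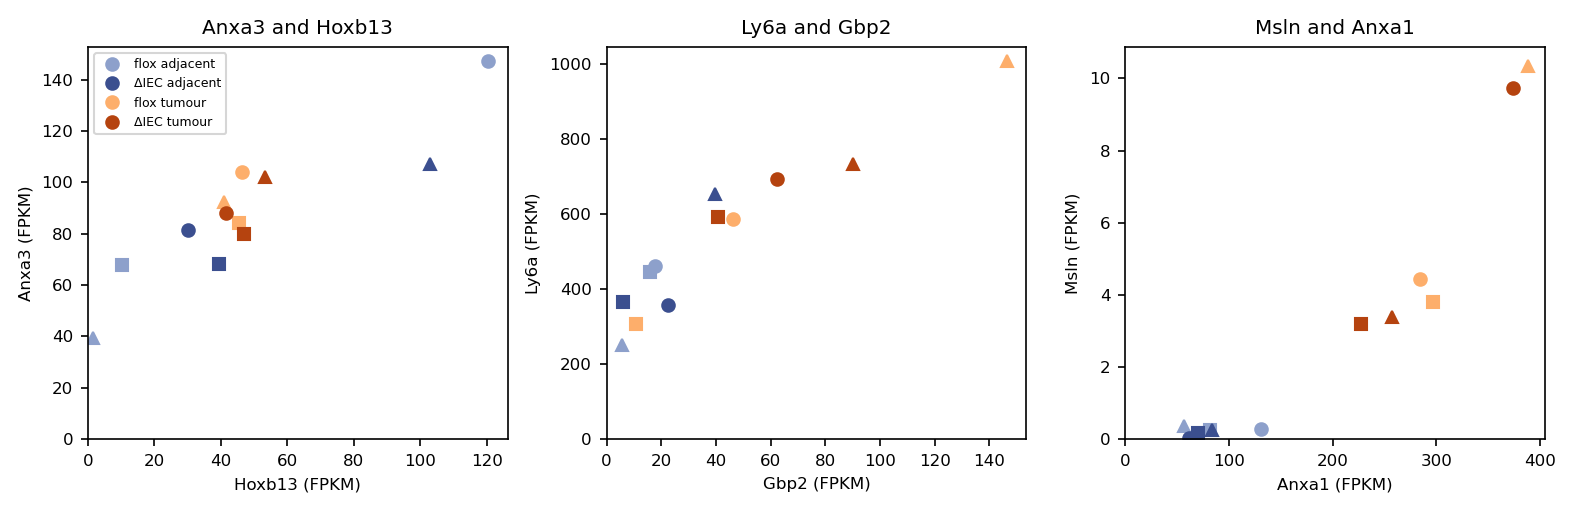
FPKM of Anxa3 against Hoxb13, of Ly6a against Gbp2 and of Msln against Anxa1 (linear axes), 1 point per library, coloured by group, with circles, squares and triangles for replicates 1, 2 and 3. Adjacent libraries span 39.3 to 147.4 in Anxa3 while tumours stay between 80.0 and 104.3; flox tumour 3 is highest in Ly6a and Gbp2; Msln and Anxa1 separate the tissues.

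The cell types in the samples bear on every tumour contrast, because in bulk tissue fewer cells of a type and less RNA per cell cannot be told apart. Markers of the general epithelium had a summed FPKM of 5890 to 10192 in adjacent libraries and 4256 to 6071 in tumours. Epcam, Cdh1 and Krt8 were among the 9 of 10 called lower in the mean contrast (9 in flox, 3 in ΔIEC). With equal protein-coding totals 4 were called lower and 1 higher. The adjacent samples, labelled as epithelium, also held fibroblast markers such as Col1a1, Col1a2 and Col3a1, at a summed 60.8 to 294.2. In tumours that sum was 347.8 to 742.1, and 6 of 8 fibroblast genes were called higher in the mean contrast (6 in flox, 2 in ΔIEC). Over all genes tested 50.6% were called in the mean contrast, and 24.2% as higher.

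Neutrophil markers had a summed FPKM of 6.83 to 196.5 in adjacent libraries and 177.8 to 674.6 in tumours. Of 6 tested genes 5 were called higher in the mean contrast (5 in flox, 5 in ΔIEC). S100a8, an alarmin of neutrophils, was at 0.606 to 2.91 in adjacent libraries and 55.7 to 255.3 in tumours. Among tumours the sum was highest in ΔIEC tumour 1 and flox tumour 3, the libraries highest in Anxa1 and Msln, and Anxa1 is known to be abundant in neutrophils. Ly6g, although a neutrophil gene, was at 192.0 in flox adjacent 1, where S100a8 was below 3, so Ly6g made up most of the sum there and did not follow S100a8 in adjacent tissue. The sums of macrophage genes, 28.5 to 155.6 in adjacent libraries and 97.7 to 200.6 in tumours, and of endothelial genes, 11.9 to 47.3 and 41.0 to 58.1, overlapped between tissues. Macrophage calls in the mean contrast (6 of 8 higher) fell to 2 when protein-coding transcripts alone were summed, and 5 of 8 endothelial genes were called higher in it. Within flox 2 macrophage and 6 endothelial genes were called higher, and within ΔIEC 0 of either. Of all genes tested, 24.2% were called higher in the mean contrast, 16.6% in flox and 13.9% in ΔIEC.

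Squamous markers such as Krt5, Krt13 and Krt14 were at a summed 0.840 to 4.50 in adjacent libraries, 434.6 and 385.5 in flox tumours 1 and 2, and 19.5 to 45.2 in the other 4 tumours. Anxa1 and Msln were highest in flox tumour 3 and ΔIEC tumour 1. In the mean contrast 0 of 8 T cell markers were called higher and 2 lower (1 lower in flox, 0 in ΔIEC), and 0 of 6 smooth muscle markers were called. Genes of the distal colon were called higher in 3 of 5 tested (Hoxd13, Hoxd11 and Hoxd12), while Hoxb13 was not. Of all 16970 genes tested in the mean contrast, 50.6% were called, 24.2% as higher, and 4488 genes were lower. Against that, the T cell calls are no excess. The part of these cell types in the differences of Anxa1, Msln, Clu, Ly6a and Anxa3 was not tested.

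**Figure D5:**
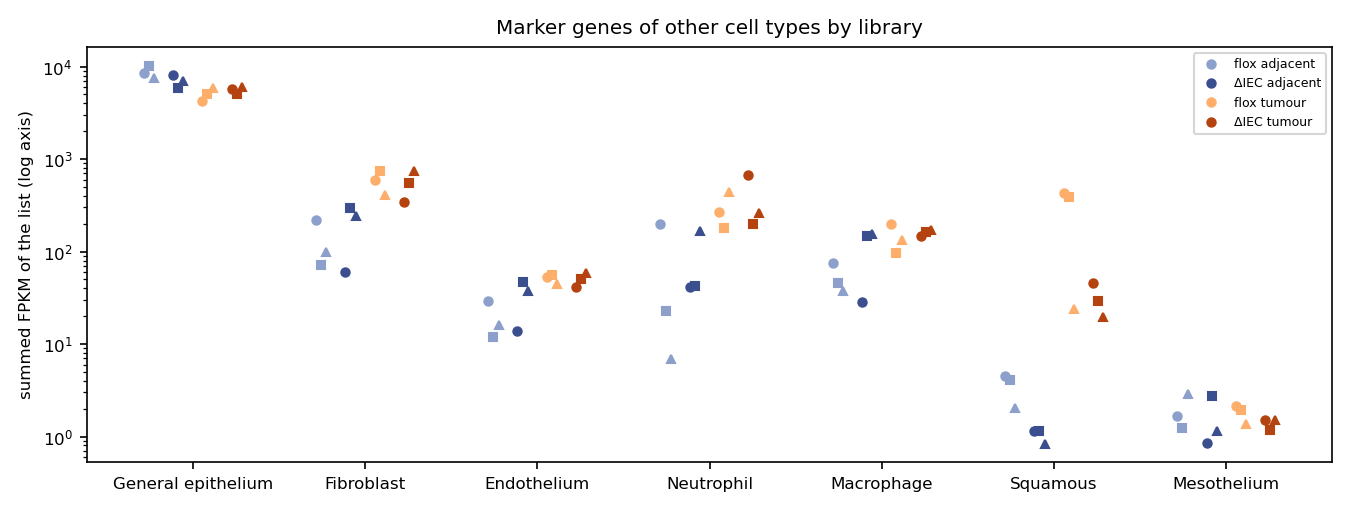
Summed FPKM (y axis, log scale) of marker genes of 7 cell types (x axis) in the 12 libraries, coloured by group, with circles, squares and triangles for replicates 1, 2 and 3. Fibroblast sums are higher in every tumour than in any adjacent library, and neutrophil sums are so in every tumour but flox tumour 2. Squamous sums reach 434.6 and 385.5 in flox tumours 1 and 2, and mesothelial sums stay between 0.851 and 2.88 throughout.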

How the data were processed

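Total RNA from dissected tumours and adjacent tissue was made into strand-specific libraries with a TruSeq kit, per the labels' protocols. The submitters' processing notes name FastQC, STAR 2.5, Cuffnorm and GRCm38; their settings and roles were not given in the sources used here. Deposited by the authors are log2 values per transcript, in the table log2(FPKM + 1), for 123062 transcripts in 12 columns. Of these, 118004 (95.9%) matched GENCODE M21 on GRCm38; the rest, with 4.36% to 7.44% of a library's FPKM, were left out. FPKM was recovered from each value and added up over the transcripts of a gene. Summed FPKM was 534806 to 821487 per library, and the correlation of libraries within a group was 0.912 to 0.962. FPKM carries no depth, so no counting interval is given.

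The 16970 genes that reached an FPKM of 1 in 3 or more libraries were tested on log2(FPKM + 1), a pseudocount of 1, with limma 3.58.1 under R 4.3.3 (lmFit, contrasts.fit, eBayes with trend and robust; 4 group means, 8 residual degrees of freedom). The call threshold was 0.05 for the two-sided p, adjusted by Benjamini-Hochberg over all genes of a contrast. Exact permutation tests over libraries were two-sided (scipy 1.17.1).

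The members and gene lists were chosen with earlier results of these data known. Named genes are the 5 members, Trappc4, the 3 genes most like each member in log2(FPKM + 1) (protein coding, mean FPKM of at least 5, no Gm or Rik genes), up to 4 called genes per list with the largest absolute mean tumour difference, tested annexin and Ly6 genes, and the first 3 markers per cell type; exceptions are said to be named after their values were seen. Ccn1 and Ccn2 were matched through RefSeq synonyms and Prac1 was not matched. One gene of the fetal and regenerative list is not reported here and stays out of its counts. Alternatives were another pseudocount (0.1), a filter at FPKM 5 or none, median centring, quantile normalization, equal protein-coding totals, protein-coding transcripts alone, the compared groups alone, replicate blocks and leaving out each library. The steps were tested on simulated data. The 10 libraries whose code occurs in both tissues, analysed alone, were an alternative chosen after seeing the data.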

Additional observations from a re-analysis of the deposited data

How the results depend on the processing

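With each of the 12 libraries left out in turn, and under the other alternatives, Anxa1 kept its direction and its calls in all 3 tumour contrasts. Msln did so too wherever it was tested, but it passed the filter through its tumours alone, so this adds no support. It was not tested at a filter of FPKM 5, which left 1 of the 5 genes called in flox and 1 in ΔIEC. Over all differences of the 5 genes, 318 leave-one-out values kept direction and call, 31 reversed, 4 gained a call and 7 lost one; under the other alternatives the numbers were 299, 8, 5 and 2. The cause of the changes below was not tested. Clu in flox was called with equal protein-coding totals (3.07, limma adjusted p = 0.0315), with the compared groups alone (2.65, 0.00946) and with libraries whose code has both tissues (2.65, 0.00443); its mean difference lost the call with no filter (1.96, 0.0642) and with protein-coding transcripts alone (1.94, 0.0779). Ly6a in the mean contrast was called after quantile normalization (1.00) and with equal protein-coding totals (0.99). Reversed were Anxa3 between genotypes in tumours (0.011, protein-coding transcripts alone) and, for the interaction, Ly6a (0.054, median centring), Anxa1 (-0.14 quantile, -0.085 equal totals, -0.26 both-tissue codes) and Msln (0.46 pseudocount 0.1, 0.0037 quantile, 0.016 median centring). Among all genes, the ΔIEC tumour contrast called 4981, or 2564 with the compared groups alone and 1697 with both-tissue codes; genotype in adjacent tissue called 0, or 301 with both-tissue codes; genotype in tumours called 0, or 8 with no filter and 1 with the compared groups alone.

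Leave-one-out values ran as follows. In flox 3891 to 6725 genes were called, with Anxa3 from -0.10 to 0.84 and Clu from 2.24 to 3.04, and 2 to 3 of the 5 genes called. In ΔIEC 2910 to 5086 genes were called, with Anxa3 from -0.061 to 0.26 and Clu from -0.084 to 2.05. In the mean contrast Ly6a ran from 0.40 to 0.83, Anxa3 from -0.0049 to 0.46 and Clu from 1.28 to 2.35, with 2 to 3 called. For genotype in adjacent tissue 0 to 299 genes were called, with Ly6a from -0.039 to 0.40, Anxa1 from -0.53 to 0.066 and Anxa3 from -0.24 to 0.70. For genotype in tumours 0 to 3 genes were called, with Ly6a from -0.20 to 0.66, Anxa3 from -0.15 to 0.025, Clu from -0.98 to 0.0035 and Msln from -0.64 to 0.19. For the interaction 0 to 1 gene was called, with Ly6a from -0.44 to 0.41, Anxa1 from -0.26 to 0.34, Anxa3 from -0.75 to 0.19, Clu from -2.73 to -0.60 and Msln from -0.48 to 0.35. With the title number as a replicate block, 2, 2 and 3 of the 5 genes were called in flox, ΔIEC and the mean contrast, as without it. The code as a block gave the same counts of the 5 genes, with a consensus correlation of 0.0291. These counts include Msln, which passed the filter through its tumours alone. Over all genes the title-number block called 5387, 4115 and 8063, against 6163, 4981 and 8588 without it, and the code block 6286, 5060 and 8679. Deviations from the group means correlated from -0.19 to 0.17 for libraries that share a code, and from -0.40 to 0.36 for libraries of different groups and codes. With 3 libraries a group these values cannot show whether a code is an animal.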
